A study of Mus musculus with 2 samples.

Results

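Surface proteins of the Ly6 family and the integrin subunit CD11b were followed at once as RNA and as antibody staining in single mouse bone marrow cells. The genes were Ly6a, Ly6c1, Ly6c2, Ly6d, Ly6e, Ly6g and Itgam, chosen by name, and the stains were the barcoded antibodies Sca1, Gr1 and CD11b, which bind products of these genes. They are 7 of the 32285 genes and 3 of the 15 antibody tags that were counted in the same cells. Of the tags, 2 were hashtags, antibodies that mark batches of cells rather than a protein of interest.

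The study set Kit+ cells of the bone marrow carrying the CD45.2 form of the leukocyte antigen, taken 10 weeks after transplantation, from a control against cells labelled Utx-deleted. Utx (gene Kdm6a) is a histone demethylase that works with the MLL3 and MLL4 methyltransferase complexes. Each group was 1 library, in which the RNA and the antibody barcodes of a droplet were read together as UMIs (unique molecular identifiers, 1 per captured molecule). The allele, the Cre driver, the recipient strain, the number of animals per library and what the hashtags mark are not given in the sources used here. With 1 library per group there is no replicate, so no test was made between the conditions, and every ratio below compares those 2 libraries. Intervals of levels (Poisson), shares of cells (Clopper-Pearson) and log2 ratios of gene UMIs (binomial split) are 95% and exact. They cover counting error only. Intervals of tag medians are 95% order-statistic intervals over the cells of 1 library, and cells are not replicates.

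The Ly6 family consists of small proteins held to the outer membrane by a lipid anchor. Ly6a is Sca-1, the classical marker used with Kit to sort mouse haematopoietic stem and multipotent progenitor cells, and interferon raises its transcription. Ly6g marks neutrophils as they mature, and Ly6c2 encodes the Ly6C of monocytes and their precursors. The Gr1 antibody binds Ly6G strongly and Ly6C more weakly, so 1 stain reads the products of several genes. Ly6d appears on lymphoid progenitors as they commit to the B-cell lineage, and Ly6e is a broadly expressed, interferon-inducible member. Itgam encodes CD11b, the alpha chain that pairs with the beta chain Itgb2 to form an adhesion and complement receptor of myeloid cells.

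The 6 Ly6 genes lie within 397 kb of chromosome 15 (GRCm38), in the order Ly6d, Ly6e, Ly6a, Ly6c1, Ly6c2, Ly6g. Ly6d spans chr15:74762056-74763620 on the minus strand and Ly6e chr15:74955051-74959905 on the plus strand. Ly6a spans chr15:74994877-74998031, Ly6c1 chr15:75044018-75048830 and Ly6c2 chr15:75108158-75111970, all on the minus strand. Ly6g spans chr15:75155240-75159126 on the plus strand, 43.3 kb from Ly6c2, which is 59.3 kb from Ly6c1. Itgam spans chr7:128062640-128118491 on the plus strand, where it overlaps the gene model Gm49368 on the same strand, and reads of the shared stretch cannot be told apart. The library kit reads the 3' ends of transcripts. Over the last 500 bases Ly6c1 and Ly6c2 were 98.2% identical, and 8.52% of their 90-base windows were the same, so how reads were divided between this pair is uncertain. No 90-base window was shared between any other 2 members, whose paired identities among Ly6a, Ly6c1, Ly6c2 and Ly6g ran from 84.5% to 87.9%.

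The RefSeq promoter table (GRCm38.p6) had an entry for 4 of the 7 genes. Their promoters are shown because Ly6g, Ly6c2 and Itgam are the members with most RNA in the neutrophil lineage, and because Ly6g and Ly6c2 differed between the libraries in opposite directions there. Each window runs from 250 bases before to 50 bases after a start given in that table, written 5' to 3' along the gene's strand. These starts need not be the first base of the gene spans above, and that of Ly6g lies inside its span. Capitals mark GAGGAA on either strand (TTCCTC where it is on the reverse), a core bound by ETS factors such as PU.1.
Ly6c1 promoter, chr15:75048788-75049087, minus strand: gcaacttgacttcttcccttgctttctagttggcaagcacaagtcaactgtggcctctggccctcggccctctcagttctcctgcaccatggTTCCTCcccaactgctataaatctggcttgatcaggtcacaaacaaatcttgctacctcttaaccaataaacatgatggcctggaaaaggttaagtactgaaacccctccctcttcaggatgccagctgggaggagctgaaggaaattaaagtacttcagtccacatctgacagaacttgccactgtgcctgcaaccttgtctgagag
Ly6c2 promoter, chr15:75111922-75112221, minus strand: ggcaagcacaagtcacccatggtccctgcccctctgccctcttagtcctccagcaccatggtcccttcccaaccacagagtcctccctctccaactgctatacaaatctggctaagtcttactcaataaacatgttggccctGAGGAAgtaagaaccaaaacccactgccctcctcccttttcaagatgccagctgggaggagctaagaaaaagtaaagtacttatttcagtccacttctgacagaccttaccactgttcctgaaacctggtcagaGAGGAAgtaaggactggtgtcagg
Ly6g promoter, chr15:75155079-75155378, plus strand: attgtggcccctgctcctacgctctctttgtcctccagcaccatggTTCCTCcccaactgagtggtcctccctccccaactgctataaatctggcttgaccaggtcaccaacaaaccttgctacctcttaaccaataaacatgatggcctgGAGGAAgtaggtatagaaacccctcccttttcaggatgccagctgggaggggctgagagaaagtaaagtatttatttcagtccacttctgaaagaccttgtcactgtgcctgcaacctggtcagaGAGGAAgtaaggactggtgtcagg
Itgam promoter, chr7:128062390-128062689, plus strand: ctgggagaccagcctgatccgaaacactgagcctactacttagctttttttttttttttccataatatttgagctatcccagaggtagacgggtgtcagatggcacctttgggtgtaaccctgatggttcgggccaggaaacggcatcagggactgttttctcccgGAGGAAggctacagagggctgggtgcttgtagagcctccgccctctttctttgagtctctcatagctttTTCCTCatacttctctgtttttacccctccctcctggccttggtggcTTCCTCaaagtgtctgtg
Where the table held more than 1 window for a Ly6 gene, the printed windows are those most alike among the 3 Ly6 genes. Ly6c1 and Ly6g matched at 87.4% of aligned bases, Ly6c2 and Ly6g at 85.7%, and Ly6c1 and Ly6c2 at 78.2%. GAGGAA occurred 3 times in the windows of Ly6g and Itgam, 2 times in that of Ly6c2 and 1 time in that of Ly6c1. Of all 32851 promoters in the table, 28.3% held it. TTGCNNAA (the C/EBP type), AGATAA (the GATA type) and TTCNNNGAA (the STAT type) had no match on either strand in the 4 windows, against 10.8%, 11.2% and 8.3% of all promoters. A match of letters is a description of the sequence and not evidence of binding.

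The control library held 7827 barcodes with 122130256 gene UMIs and 32236729 tag UMIs, and the library labelled Utx-deleted 7883 barcodes with 129736034 and 33278663. After filters 7020 and 7157 cells were kept, with medians of 12402 and 11785 gene UMIs and 1941 and 1895 tag UMIs other than hashtags. The libraries shared 17 barcodes, 13 of them kept in both. Kdm6a was at 110 CPM (gene UMIs scaled to a total of 1000000) in the control and 103 in the other library (log2 ratio -0.095, -0.13 to -0.058), so its 3'-end counts did not check the label, and the term "library labelled Utx-deleted" is used throughout. Kit, the gene of the sorted antigen, had a UMI in 43.2% and 38.7% of cells, and Ptprc, which encodes CD45, was at 458 and 475 CPM. Most kept cells were of the neutrophil lineage in spite of the Kit+ label, and a Kit UMI was found in 18.3% and 15.3% of maturing neutrophil-like cells against 96.4% and 99.3% of HSC/MPP-like cells.

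Cells were clustered without the Ly6 genes or Itgam and named from fixed marker genes, and 5 classes had at least 100 cells in each library. They were HSC/MPP-like (haematopoietic stem or multipotent progenitor) cells, 577 in the control and 270 in the library labelled Utx-deleted, neutrophil progenitor-like (359 and 522), pre-neutrophil-like (1521 and 1337), maturing neutrophil-like (3615 and 4027) and monocyte progenitor-like cells (292 and 637). Neutrophil clusters largely followed the library. Pre-neutrophil-like cells were mostly cluster 2 in the control and cluster 3 in the other library, with cluster 13 in both, and maturing cells were mostly clusters 1, 5 and 7 in the control and 0, 4 and 6 in the other, with cluster 10 in both. Levels within these classes are therefore levels of different clusters, and the library and the state of the cells cannot be told apart by class alone. RNA levels are CPM of summed UMIs, and log2 ratios are those of the library labelled Utx-deleted over the control with 1 UMI added to each sum.

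Over all kept cells none of the 6 members that could be tested passed a 2-fold difference, where 6.76% of all 13543 genes did. Ly6g came nearest among the abundant members, at 243 CPM in the control (26421 UMIs, 63.9% of cells) and 406 CPM in that labelled Utx-deleted (45997 UMIs, 73.4% of cells), a log2 ratio of 0.74 (0.72 to 0.76). In these pooled values more cells of a class and more RNA per cell cannot be told apart. Ly6c2 was at 702 and 731 CPM (log2 ratio 0.059), Itgam at 539 and 567 CPM (0.072) and Ly6e at 216 and 232 CPM (0.11). These 3 ratios were small, and each changed sign for at least 1 setting or hashtag. Ly6a was lower at 2.79 against 1.4 CPM (log2 ratio -0.99, -1.28 to -0.72), but few cells set this value, since the 10 richest cells held 23.1% of the 303 control UMIs and 74.7% of the 158 UMIs of the other library. With hashtag 1 alone the log2 ratio of Ly6a was 0.33 and with hashtag 2 alone -2.52. Ly6d was at 5.21 and 5.76 CPM in 62 and 40 cells, with log2 ratios of opposite sign for the hashtags (1.34 and -0.55). Ly6c1 had 12 and 13 UMIs, 1 in each cell that had any, too few to be tested, and its division from Ly6c2 is uncertain.

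**Figure D1:**
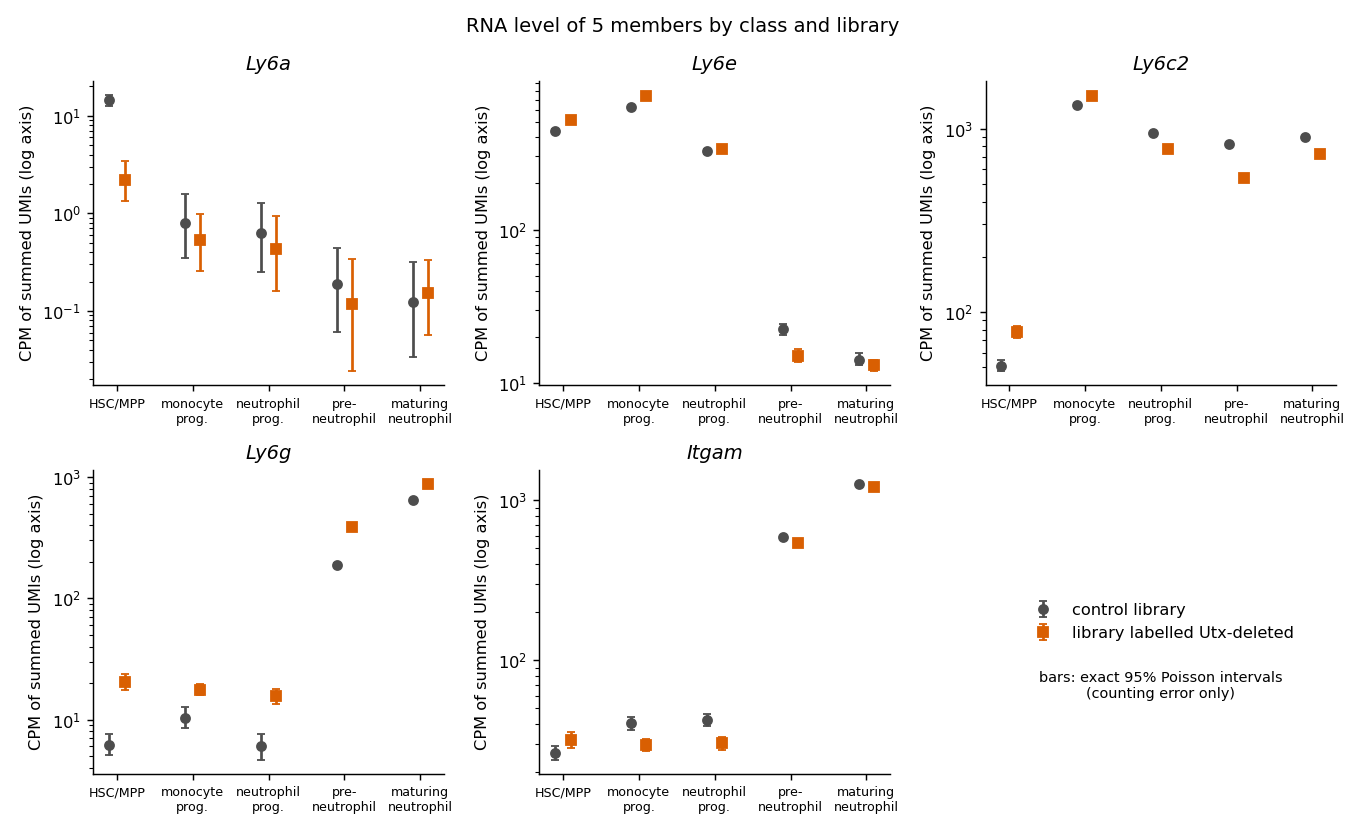
CPM of Ly6a, Ly6c2, Ly6e, Ly6g and Itgam in the 5 classes (log axis) for the control library and that labelled Utx-deleted, with exact Poisson 95% intervals, 1 library per group. Ly6a was highest in HSC/MPP-like cells of the control, Ly6c2 and Ly6e in monocyte progenitor-like cells, and Ly6g and Itgam in maturing neutrophil-like cells of both libraries.

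Among the 5 classes Ly6a RNA was highest in HSC/MPP-like cells, and it was lower there in the library labelled Utx-deleted. In HSC/MPP-like cells it was at 14.4 CPM in the control (231 UMIs) and 2.22 CPM in the other library (19 UMIs), a log2 ratio of -2.63 (-3.46 to -2.02). The difference had the same direction with either hashtag, at -2.11 and -2.91. A Ly6a UMI was present in 22.2% of control HSC/MPP-like cells and 5.19% of those labelled Utx-deleted, at median depths of 26663 and 30828 UMIs, and with each cell thinned to 2000 UMIs in 4.01% and 1.11%. Maturing neutrophil-like cells, which should lack Ly6a, had a UMI in 0.111% and 0.149% of cells at median depths of 8127 and 8684. In the 4 other compared classes Ly6a stayed under 1 CPM in both libraries. The size of the HSC/MPP difference depended on the clustering, and at the finer resolution it was -1.24 on the log2 scale. In HSC/MPP-like cells 3 of the 6 tested members passed 2-fold, Ly6g higher and Ly6a and Ly6d lower, where 4.75% of all genes did. Ly6g was no longer past 2-fold in HSC/MPP-like cells poor in neutrophil transcripts (log2 ratio 0.16, -0.54 to 0.80), and Ly6d rests on 10 control cells.

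Among HSC/MPP-like cells the Sca1 tag was higher in the few cells that had Ly6a RNA. In the other compared classes very few cells had a Ly6a UMI, and the direction was mixed. With against without such a UMI, the medians were 2 against 7 UMIs in control neutrophil progenitor-like cells and 12 against 7 in control pre-neutrophil-like cells. In control HSC/MPP-like cells the median tag count was 55.5 UMIs in the 128 cells with a Ly6a UMI (37 to 77) and 10 in the 449 cells without. In the library labelled Utx-deleted it was 50.5 UMIs in 14 such cells (10 to 144) and 5 in the 256 others. The intervals of these 2 medians of cells with Ly6a RNA overlapped widely, and such cells were a smaller share of the library labelled Utx-deleted. Across all HSC/MPP-like cells the median was 12 UMIs in the control (90th percentile 94.4) and 5 in the other library (90th percentile 19.1). Most cells were near a background that also differed between the libraries, since maturing neutrophil-like cells had medians of 6 and 3 Sca1 UMIs. Against that background the HSC/MPP-like median was 2 times higher in the control and 1.67 times higher in the other library. Among HSC/MPP-like cells other stains were also lower, where Sca1 was 2.4-fold lower. CD11b was at 11 and 5 UMIs, CD127 at 4 and 2, CD150 and CD201 each at 2 and 1, CD135 at 2 and 0, CD48 at 1014 and 639 and CD41 at 15 and 11, while CD117 (the Kit protein) at 218 and 226, CD34 at 45 and 55 and CD16_32 at 96 and 135 were not. B220 at 17 and 14 and Gr1 at 24 and 21 were slightly lower in UMIs and not lower as shares of tag UMIs (log2 ratios 0.037 and 0.13). The part of these staining differences in the Sca1 difference was not tested.

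Sca1-high cells, taken as those whose Sca1 share of tag UMIs was above 0.941% (the control's 90th percentile), made up 10% of control cells and 4.07% of cells labelled Utx-deleted (3.62% to 4.55%). This class is a range of a score and not a cell type, and 239 and 69 cells lay within 10% of the limit. The control's 10% is set by the limit itself. Over all cells the median Sca1 share was 0.313% and 0.146%, and that of Gr1, part of the same total, 31.2% and 55.3%. The part of these shifts in the Sca1-high difference was not tested. Within HSC/MPP-like cells 40.5% (36.4% to 44.6%) and 19.3% (14.7% to 24.5%) were Sca1-high. Sca1-high HSC/MPP-like cells held Ly6a at 39.5 CPM in the control and 12.7 CPM in those labelled Utx-deleted, with 2.04 and 0.14 CPM in the remaining HSC/MPP-like cells. HSC/MPP-like cells were 33.2% of the Sca1-high cells in the control and 17.9% in the other library, and maturing neutrophil-like cells, where Ly6a was near 0, were 14.7% and 19.9%. Dendritic-like cells, 37 and 89 in number, had Sca1 medians 3.67 and 5 times those of maturing cells, and their Ly6a RNA (13.9 and 19 CPM) came from 5 and 4 cells. Over all cells the agreement of tag and gene was weak, with Spearman's rho of 0.20 and 0.088 across cells of the same library, and within HSC/MPP-like cells it was 0.50 and 0.35. When cells were divided into 10 bins by Sca1 share, with limits from both libraries together, Ly6a was at 13.9 and 18.1 CPM in the highest bin and at most 0.844 CPM in any other. A Ly6a UMI was found in 12.8% and 6.35% of the cells of that bin, the opposite order to the CPM, and few cells held most of the UMIs labelled Utx-deleted.

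**Figure D2:**
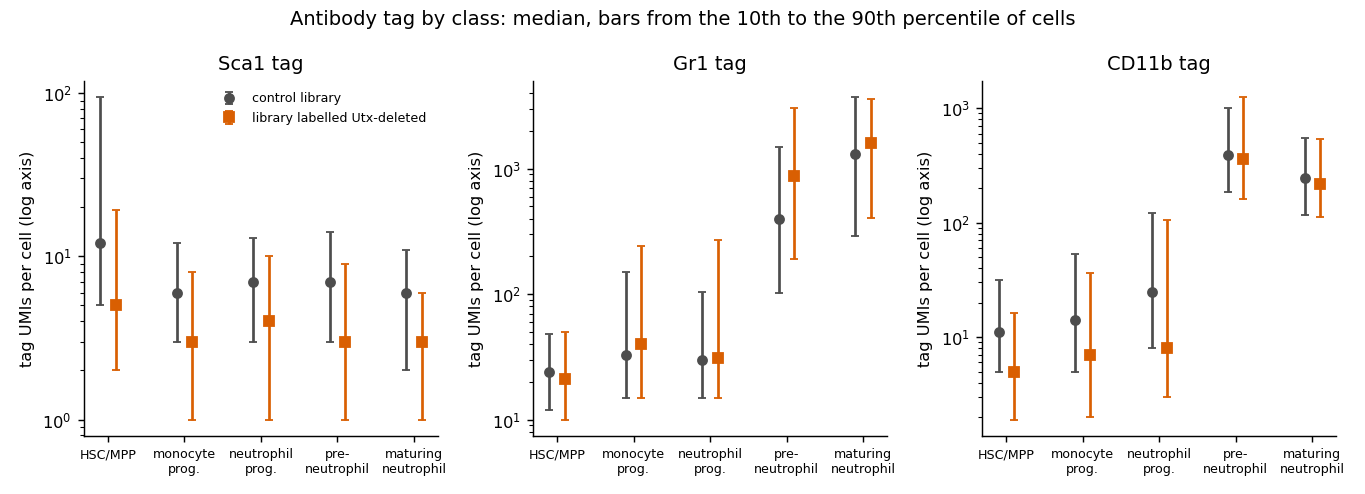
Median UMIs per cell of the Sca1, Gr1 and CD11b tags by class (log axis), with bars from the 10th to the 90th percentile of cells, for the control library and that labelled Utx-deleted. Gr1 and CD11b were high in pre-neutrophil-like and maturing neutrophil-like cells only among the 5 classes, and Sca1 reached its highest upper percentile in control HSC/MPP-like cells.

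**Figure D3:**
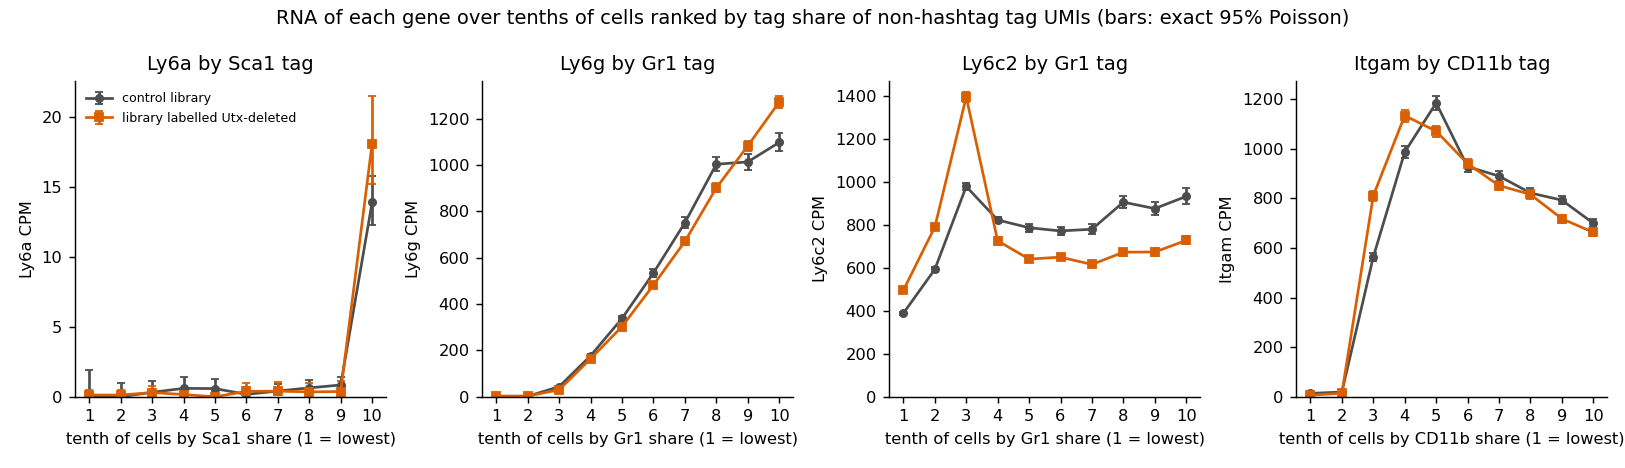
CPM of the tag's gene by bin of tag share (10 bins with limits from the cells of both libraries), for Ly6a by Sca1, Ly6g and Ly6c2 by Gr1, and Itgam by CD11b, each library as a line with exact Poisson 95% intervals. Ly6a was highest in the last bin, Ly6g was higher in each later Gr1 bin from the third on, and Ly6c2 and Itgam were highest in bins 3 to 5.

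Ly6g was the member with more RNA in the library labelled Utx-deleted throughout the neutrophil series, and it was most different early. In pre-neutrophil-like cells it was at 189 CPM in the control (5030 UMIs) and 386 CPM in the other library (9906 UMIs), a log2 ratio of 1.03 (0.98 to 1.08), with 0.98 and 1.09 for the hashtags. It was the only one of the 4 tested members past 2-fold in this class, where 4.1% of all genes were. In maturing neutrophil-like cells it was at 644 and 875 CPM (log2 ratio 0.44, 0.42 to 0.47, with 0.50 and 0.36 for the hashtags), and none of 4 members passed 2-fold where 4.95% of all genes did. In neutrophil progenitor-like cells it was at 6 and 15.6 CPM (log2 ratio 1.36, with 2.44 and 0.95 for the hashtags, the latter under 2-fold), the only one of 4 members past 2-fold in a class where 1.67% of all genes were. The 9 maturing-neutrophil markers differed almost as much there (1849 and 4157 CPM, log2 ratio 1.17), and 17 and 47 cells had over 1% of their UMIs from them. In the other cells of the class Ly6g was at 1.51 and 3.66 CPM (log2 ratio 1.22, 0.42 to 2.20) from 16 and 45 UMIs, and the part of the marker RNA in the class value was not tested. None of 4 members passed in monocyte progenitor-like cells, where 2.2% of all genes did and Ly6g was at 10.4 and 17.7 CPM. There the log2 ratio was 0.068 with hashtag 1 and -0.28 with hashtag 2, and these cells held 41 and 116 of the 330 UMIs labelled Utx-deleted, so the pooled difference was not seen in cells of a single hashtag.

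The pre-neutrophil-like value rests on different clusters. In cluster 2, which held 1204 control cells, Ly6g was at 210 CPM, and the 25 cells labelled Utx-deleted in it were at 263 CPM (log2 ratio 0.34, 0.052 to 0.59). In cluster 3 the 1180 cells labelled Utx-deleted were at 398 CPM and the 43 control cells at 368 CPM (log2 ratio 0.11, -0.077 to 0.31). In cluster 13, shared by 274 and 132 cells, Ly6g was at 68.7 and 279 CPM (log2 ratio 2.02, 1.82 to 2.22). The difference was thus within counting error in cluster 3, small in cluster 2 and largest of the 3 in cluster 13. Clusters 2 and 3 each held few cells of 1 library, placed there by likeness of their RNA. Their inner differences therefore cannot tell the library from the state of the cells.

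The maturing class was divided into 5 steps by the summed level of the late genes Retnlg, Mmp9, Cxcr2 and Mmp8, a division chosen after the data had been seen. Ly6g was at 269, 509, 890 and 1060 CPM in the control's steps 1 to 4 and at 750 CPM in the last. In the library labelled Utx-deleted it was at 564, 847, 1142, 1198 and 795 CPM. The log2 ratio narrowed from 1.07 in the first step to 0.74, 0.36, 0.18 and 0.084 in the last. The difference in the earliest maturing cells was thus close to that in pre-neutrophil-like cells, and the latest cells differed least.

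The Gr1 tag was higher in the library labelled Utx-deleted in the early steps, as Ly6g RNA was. In the last 2 steps its raw median was not higher, while its share of tag UMIs differed little (75.4% and 80.9%, then 80.6% and 83.1%). Its median was 398 and 878 UMIs in pre-neutrophil-like cells, 400 and 732 in the first maturing step, 2254 and 2221 in the step before last, and 3107 and 2634 in the last, where the control was the higher library. Over all cells the medians were 532 and 976 UMIs, and as a share of tag UMIs the log2 ratio of medians was 0.82 (0.73 to 0.92). That range joins the opposite limits of the 2 medians and is not an exact interval. Cells with a Ly6g UMI stained more than cells without in both libraries, at 556 against 154 UMIs in control pre-neutrophil-like cells and 982 against 215 in those labelled Utx-deleted. In maturing cells the medians were 1410 against 476 UMIs and 1676 against 555. Across all cells of a library, rho between Gr1 share and Ly6g was 0.79 and 0.77, rank 3 of 10111 genes in the control and rank 1 of 9901 in the other. Within pre-neutrophil-like cells it was 0.71 and 0.68 and within maturing cells 0.52 and 0.46. These correlations are descriptions over cells that share a library, and tag share and gene CPM are each divided by the same cell's totals. From the lowest to the highest of the 10 bins of Gr1 share Ly6g went from 1.78 to 1097 CPM in the control and from 3.52 to 1271 CPM in the other library.

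**Figure D4:**
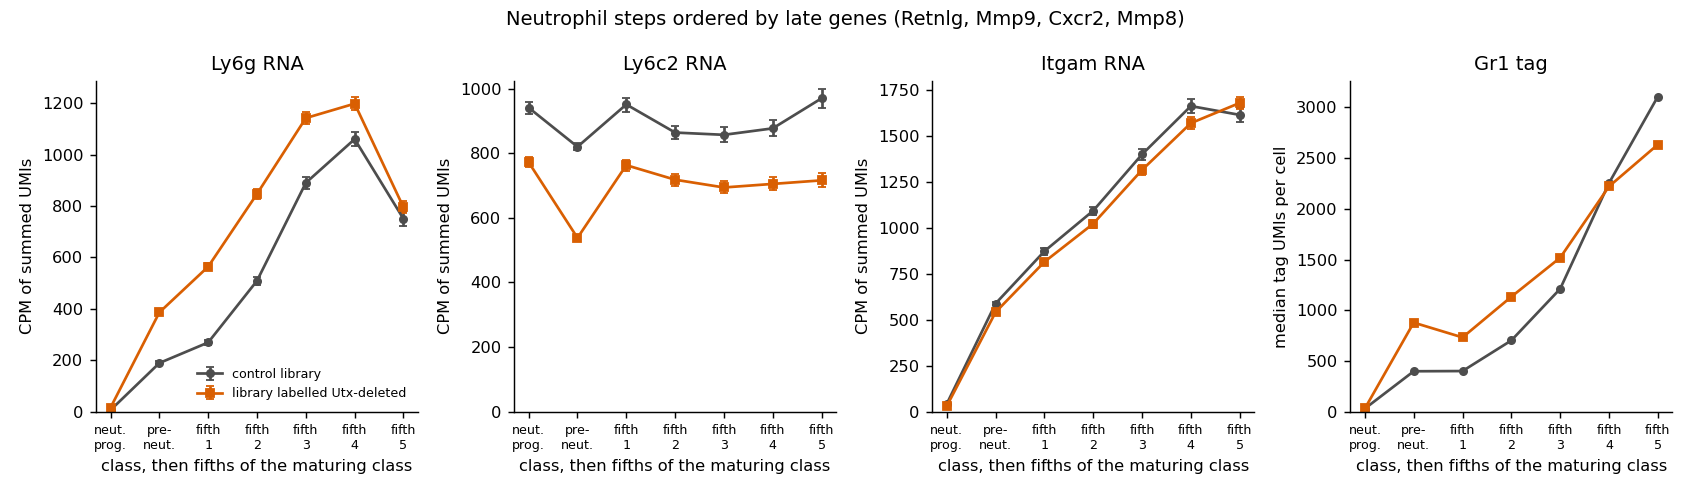
Ly6g, Ly6c2 and Itgam CPM (exact Poisson 95% intervals) and median Gr1 tag UMIs across neutrophil progenitor-like cells, pre-neutrophil-like cells and the 5 steps of maturing neutrophil-like cells. Ly6g and Gr1 were higher in the library labelled Utx-deleted from the pre-neutrophil stage through the third maturing step and drew together later, while Ly6c2 was lower in that library at every step shown.

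Ly6c2 moved the other way in the same cells. It was at 820 CPM in control pre-neutrophil-like cells (21794 UMIs) and 538 CPM in those labelled Utx-deleted (13792 UMIs), a log2 ratio of -0.61 (-0.64 to -0.58), and -0.64 and -0.53 for the hashtags. By cluster it was at 734 and 700 CPM in cluster 2, 518 and 509 in cluster 3, and 1267 and 819 in cluster 13. The class difference was thus mostly one between clusters 2 and 3 and one within cluster 13. Clusters 2 and 3 each came almost wholly from 1 library, so the first of these is nearly the contrast of the libraries itself. In maturing cells it was at 900 and 724 CPM (log2 ratio -0.31), and through the 5 steps it stayed between 857 and 970 CPM in the control and between 694 and 763 CPM in the other library. In neutrophil progenitor-like cells it was at 941 and 772 CPM (log2 ratio -0.28, with -0.054 and -0.58 for the hashtags). In monocyte progenitor-like cells, its highest class in both libraries, it was at 1347 and 1509 CPM (log2 ratio 0.16), and in HSC/MPP-like cells at 51 and 78.1 CPM (0.62, or -0.15 at the finer clustering). The neutrophil markers differed more in that class (log2 ratio 1.38), and in its neutrophil-poor cells Ly6c2 was at 47 and 70 CPM (0.58, 0.41 to 0.74). The order of classes was the same in both libraries, monocyte progenitor-like, neutrophil progenitor-like, maturing, pre-neutrophil-like and HSC/MPP-like, and no neighbouring intervals overlapped.

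With each cell thinned to 2000 UMIs, more pre-neutrophil-like cells labelled Utx-deleted had a Ly6g UMI and fewer had a Ly6c2 UMI. Before thinning nearly all had Ly6c2, 98.8% of control and 97.8% of cells labelled Utx-deleted, while 72.5% and 88.9% had Ly6g. The thinned shares of Ly6c2 therefore do not show cells without the gene. After thinning, cells with a Ly6c2 UMI and none of Ly6g were 53.5% of control and 32% of cells labelled Utx-deleted. Cells with Ly6g alone were 7.25% and 18.7%, cells with both 20.7% and 28.1%, and cells with neither 18.6% and 21.2%. In maturing cells the share with both was close, 52.7% and 51.1%, while Ly6g alone was found in 11.8% and 21.4% and Ly6c2 alone in 28.2% and 18.7%. At this depth a cell without a UMI may still express the gene.

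In monocyte and neutrophil progenitor-like cells, where Ly6g was scarce, the Gr1 tag followed Ly6c2. In monocyte progenitor-like cells, of which 81.5% and 84.1% had Ly6c2 alone after thinning, the rho of Gr1 with Ly6c2 was 0.45 and 0.55, and in neutrophil progenitor-like cells 0.43 and 0.44. Monocyte progenitor-like cells with Ly6c2 alone had a median of 35.5 Gr1 UMIs in the control and 46 in the other library, against 22 and 19 in cells with neither. The same medians in HSC/MPP-like cells were 30 and 22 against 23 and 20, and the rho was -0.016 and -0.057. In pre-neutrophil-like cells the rho was -0.25 and -0.08, and in maturing cells -0.041 and -0.013. By bin of Gr1 share Ly6c2 was highest in bin 3, at 979 and 1396 CPM, and it was at 933 and 728 CPM in the highest. By share, Ly6c2 in the control was thus about as high in the most stained cells as in bin 3, while in the other library it was lower there. By bin of raw Gr1 UMIs it was lower in the highest bin than in bin 3 in both libraries. There it was at 838 against 1088 CPM in the control and 622 against 1430 CPM in the other library.

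Itgam RNA was abundant and close between the libraries in the neutrophil classes, and lower in the library labelled Utx-deleted in progenitors that held little neutrophil RNA. In maturing neutrophil-like cells it was at 1260 and 1204 CPM (log2 ratio -0.066) and in pre-neutrophil-like cells at 589 and 542 CPM (-0.12). Through the 5 maturing steps it went from 874 to 1617 CPM in the control and from 816 to 1682 CPM in the other library, with a log2 ratio of 0.057 in the last. In HSC/MPP-like cells it was at 26.3 and 31.8 CPM (log2 ratio 0.28), with -0.51 and 0.22 for the hashtags. That ratio also turned negative without doublet removal and was larger with each cell's own score. In neutrophil progenitor-like cells Itgam was at 42.4 and 30.2 CPM (-0.49) and in monocyte progenitor-like cells at 40.3 and 29.6 CPM (-0.45). Without doublet removal these became 0.78 and 0.50, and the monocyte progenitor-like ratio also turned positive at the finer clustering. The progenitor classes held unequal amounts of neutrophil RNA. In HSC/MPP-like cells the 9 maturing-neutrophil markers summed to 1354 CPM in the control and 3519 CPM in that labelled Utx-deleted (log2 ratio 1.38), and to 1849 and 4157 CPM in neutrophil progenitor-like and 1811 and 2668 CPM in monocyte progenitor-like cells.

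Itgam was measured also in progenitor cells with at most 1% of their UMIs from these markers, an alternative added after the data had been seen. In 565 and 249 such HSC/MPP-like cells it was at 19.5 CPM in the control (304 UMIs) and 5.39 CPM in that labelled Utx-deleted (42 UMIs), 3.55-fold lower (log2 ratio -1.83, -2.36 to -1.39). In 342 and 475 neutrophil progenitor-like cells it was at 34.2 and 10.3 CPM, 3.29-fold lower (log2 ratio -1.72, -2.03 to -1.43). In 277 and 595 monocyte progenitor-like cells it was at 21.5 and 9.6 CPM, 2.24-fold lower (log2 ratio -1.16, -1.47 to -0.86). All 3 held with either hashtag, between -1.16 and -1.93. An Itgam UMI was present in 32.7% (28.9% to 36.8%) and 14.9% (10.7% to 19.9%) of these HSC/MPP-like cells, in 55.8% and 19.2% of neutrophil progenitor-like and in 46.9% and 20.7% of monocyte progenitor-like cells. After thinning, the shares were 4.27% and 1.61%, 8.24% and 1.26%, and 4.69% and 2.53%. Erythroid progenitor-like cells, which should lack Itgam, had a UMI in 6.67% of 45 control cells at a median depth of 39309, and only 4 such cells were in the other library. B-cell progenitor-like cells, which should lack it too, had a UMI in 20.3% of 69 control cells at a median depth of 16805, with 3 of them over 1% neutrophil-marker UMIs. With those 3 included, Itgam was at 46.2 CPM in these control cells, and at 5.36 CPM from 1 UMI in the 9 cells of the other library. In the same HSC/MPP-like cells Ly6g was at 3.6 and 3.98 CPM (log2 ratio 0.16, -0.54 to 0.80), against 6.22 and 20.6 CPM (1.72) with the neutrophil-rich cells included, while Ly6a had a log2 ratio of -2.48 (-3.30 to -1.87).

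The CD11b tag differed in the same direction in the same cells. In the neutrophil-poor cells its median was 10 and 4 UMIs in HSC/MPP-like, 14 and 6 in monocyte progenitor-like and 23 and 7 in neutrophil progenitor-like cells (20 to 26 and 7 to 8). Other stains differed unequally in those cells. In the monocyte and neutrophil progenitor-like classes, where Ly6a was under 1 CPM, Sca1 had medians of 6 and 3 and of 6 and 4 UMIs, and in all 3 classes in turn Gr1 had 23 and 20, 32 and 37, and 28 and 28. As shares of all tag UMIs the log2 ratios of CD11b were -0.84, -0.60 and -1.03. B-cell progenitor-like cells had medians of 6 and 3 CD11b UMIs and T or NK-like cells 5 and 4. The control medians of all 3 progenitor classes lay above those levels, as did the monocyte and neutrophil progenitor-like medians labelled Utx-deleted (6 and 7), while the HSC/MPP-like median of that library was at them. Among all HSC/MPP-like cells of the control the CD11b median was 10 UMIs in cells with an Itgam UMI and 11 in cells without. In the other library these medians were 11 and 4 UMIs. The part of background staining in the CD11b difference was not tested.

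**Figure D5:**
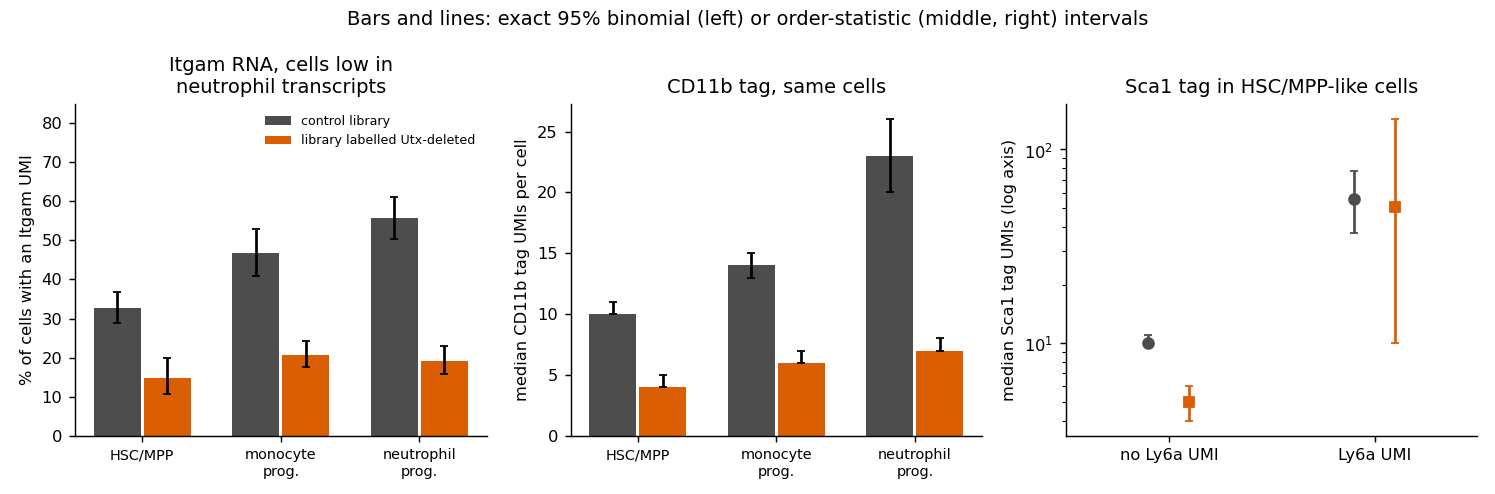
Percent of neutrophil-poor progenitor cells with an Itgam UMI (exact binomial 95% intervals), median CD11b tag UMIs in the same cells, and median Sca1 tag UMIs in HSC/MPP-like cells with and without a Ly6a UMI, for both libraries. Itgam and CD11b were lower in the library labelled Utx-deleted in all 3 classes, and HSC/MPP-like cells with Ly6a RNA carried more Sca1 in both libraries.

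CD11b staining and Itgam RNA agreed across stages and parted within the neutrophil series. Over all cells rho was 0.34 and 0.33, rank 182 of 10111 genes and 163 of 9901, so many other genes followed the tag more closely. Within neutrophil progenitor-like cells rho was 0.42 and 0.42 and within monocyte progenitor-like cells 0.39 and 0.30. Within HSC/MPP-like cells it was 0.051 in the control and 0.30 in the other library. In pre-neutrophil-like cells it was -0.031 and 0.034, and in maturing cells -0.36 and -0.33, or -0.20 and -0.15 with raw tag UMIs. The tag was highest in pre-neutrophil-like cells, at medians of 393 and 358 UMIs, and went from 328 and 269 in the first maturing step to 209 and 182 in the last, while Itgam RNA was higher in each later step but the last of the control. By bin of CD11b share Itgam was at 13.9 and 6.44 CPM in the lowest and reached 1185 CPM in bin 5 of the control and 1134 CPM in bin 4 of the other library, and was at 700 and 663 CPM in the highest. Shares of CD11b are taken of tag UMIs that include Gr1, and the part of Gr1 in these values was not tested.

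Ly6e was a transcript of progenitor, lymphoid and dendritic-like cells here. It was at 440 and 516 CPM in HSC/MPP-like cells (log2 ratio 0.23, or -0.17 at the finer clustering), 624 and 740 CPM in monocyte progenitor-like cells (0.25) and 323 and 337 CPM in neutrophil progenitor-like cells (0.061, -0.0016 to 0.12). It was at 22.5 and 15.1 CPM in pre-neutrophil-like cells (log2 ratio -0.57, -0.76 to -0.39) and 14.3 and 13.1 CPM in maturing cells. The classes stood in the same order in both libraries, and only the last pair, pre-neutrophil-like and maturing cells labelled Utx-deleted, had overlapping intervals. The 69 control B-cell progenitor-like cells had 783 CPM and the 9 of the other library 563 CPM. Dendritic-like cells, 37 and 89 in number, were at 498 and 324 CPM, and T or NK-like cells, 33 and 35, at 391 and 426 CPM.

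Ly6d was confined to few cells. In HSC/MPP-like cells it had 307 UMIs in the control, in 1.73% of cells, and 0 in the library labelled Utx-deleted. Against a floor of 3 UMIs over the class this is at least 54.6-fold lower, but a count of 10 control cells lies behind it. B-cell progenitor-like cells were at 59.7 and 220 CPM, from 69 and 9 cells. The highest levels were in the unnamed cluster 20, led by Igkc and Ighg2c, with 1550 CPM in 17 control cells and 3504 CPM in 25 cells labelled Utx-deleted. The same cluster had the most Ly6a, at 140 and 463 CPM, and 73 of the 158 Ly6a UMIs of the library labelled Utx-deleted lay there. Of Ly6d in neutrophil progenitor-like cells labelled Utx-deleted, all 42 UMIs came from 1 cell.

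The genes most like each member across control cells were found by Spearman's rho among genes detected in at least 5% of them. For Ly6a they were Samd12 (0.37), Flt3 (0.37), Gimap6 (0.34), Mecom (0.34) and Clnk (0.34), over 7019 cells, and in the library labelled Utx-deleted the highest rho of any gene was 0.16. For Ly6g they were Ltf (0.72), Plbd1 (0.70), Ifitm6 (0.70), Itgam (0.69) and Lgals3 (0.69), and Ltf was again first in the other library (0.71). For Itgam they were Syne1 (0.78), Plbd1 (0.77), Ltf (0.77), Tmcc1 (0.76) and Sorl1 (0.75), of which Tmcc1, Syne1 and Plbd1 were among the first 5 in both libraries. For Ly6c2 they were Tmsb4x (0.47), Hp (0.47), Tyrobp (0.44), Prdx5 (0.44) and S100a11 (0.43), while Ftl1 (0.34) and the monocyte progenitor marker F13a1 (0.28) were first in the other library. For Ly6e they were S100a10 (0.75), Cd48 (0.74), Msi2 (0.74), Cbfa2t3 (0.73) and Bzw2 (0.73). For Ly6d they were Foxo1 (0.22), Bach2 (0.20), Ablim1, Evl and Cnn3 (each 0.17), the first pair being regulators of B-cell development. The tags differed in how near their own gene stood. The CD11b tag was most like Chil3 (0.79), Camp (0.73), Hmgn2 (0.69), Fcnb (0.69) and Ngp (0.68), granule and proliferation genes of pre-neutrophils, and the Gr1 tag was most like Mmp9 (0.81), Tmcc1 (0.80), Ly6g (0.79), Itgam (0.79) and Mxd1 (0.78). The Sca1 tag was most like mt-Atp6 (0.42), mt-Co3 (0.41), Tpt1 (0.41), Rps19 (0.40) and Rpsa (0.40), mostly genes of mitochondria and ribosomes. With raw tag UMIs the control's first genes were Adgrg1, Car2, Ctla2a, Aff3 and Nrgn (each 0.29), while mt-Co2 (0.23) was first in the other library. Shares of Sca1 are taken of tag UMIs that include Gr1, for which Rpsa, mt-Co3 and mt-Atp6 had the lowest rho in the control (each -0.79). Cells of a library share its stages and depth, and the part of these and of Gr1 in the rho values was not tested.

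Related genes were read from lists set for the family, the integrin partners and the interferon response. Of 7 tested genes of the wider Ly6 superfamily 1 was past 2-fold higher and 2 lower over all cells, beside 1.31% and 5.45% of all genes, with a median log2 ratio of -0.57 against -0.12 for all genes. Ly6k was the higher one, with 16 and 147 UMIs (log2 ratio 3.06), of which 4 and 108 were in monocyte progenitor-like cells. Ly6g5b had 455 and 101 UMIs (log2 ratio -2.22) and Lypd6b 186 and 18 (-3.36), with 109 and 2 of these in HSC/MPP-like cells. Of 9 tested genes of the beta-2 integrins, their partners and ligands 1 was past 2-fold lower and none higher, beside the same 5.45% and 1.31% of all genes, with a median of -0.031. That gene was Itgal, the alpha chain of the lymphocyte integrin that pairs with Itgb2, at 75.8 and 27.4 CPM (log2 ratio -1.47, -1.53 to -1.41). It was past 2-fold lower in each of the 5 classes, from -1.45 in maturing cells to -2.99 in HSC/MPP-like cells, while the shared beta chain Itgb2 had a log2 ratio of 0.15 over all cells.

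Several interferon-stimulated genes were lower in HSC/MPP-like cells labelled Utx-deleted. There 6 of 12 tested were past 2-fold lower, as were 3.35% of all genes, and none was higher, with a median log2 ratio of -0.91 against -0.025 for all genes. Ifitm3, a membrane protein that restricts virus entry, was at 187 and 82.4 CPM (log2 ratio -1.18), and Ifi27l2a (-2.04), Rtp4 (-1.94), Ifi44 (-1.90), Usp18 (-1.81) and Oasl2 (-1.02) were the others. Over all cells 3 of 17 were past 2-fold lower, beside 5.45% of all genes. They were Ifi44 (-1.75), Rtp4 (-1.70) and Zbp1 (-1.13), with a list median of -0.54. In maturing cells 3 of 15 were past 2-fold lower (3.84% of all genes), in pre-neutrophil-like cells 1 of 8 (3.03%), in monocyte progenitor-like cells 1 of 7 (1.37%) and in neutrophil progenitor-like cells 0 of 7 (0.952%). The difference between classes was not tested. Ly6e, which belongs to the same response, was higher in HSC/MPP-like cells labelled Utx-deleted, as given above.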

How the data were processed

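RNA and antibody tags were measured in 2 libraries of single mouse bone marrow cells. The deposited values are raw UMI counts per gene or tag and cell, made by the authors with Cell Ranger 7.1.0 and mm10, per the submitters' processing notes. Of the deposited gene IDs, 99.8% were found in GENCODE M21. Cells with at least 500 genes and under 10% mitochondrial UMIs were kept, less those at or above the Scrublet score that bounds the top 6% in each library (458 and 512 cells with ties), because Scrublet's own limit marked 0.0267% and 0%. Clusters came from scanpy 1.11.5 and leidenalg 0.10.2 (2000 variable genes without the Ly6 genes and Itgam, 30 components, 15 neighbours, resolution 1), and a cluster took the class whose markers scored highest and of which at least 3 were detected. Comparison was limited to genes whose sums in the 2 libraries together reached 100 UMIs, using CPM of summed counts and log2 ratios after adding 1 UMI. A gene could therefore be tested on the UMIs of 1 library alone, as Ly6d was in HSC/MPP-like cells. A call is a 2-fold ratio with no test, since each group is 1 library. The step was tested on simulated data. Named genes are the members, the checks Kdm6a, Kit and Ptprc, the 5 most similar genes by rho in the control, and listed genes past 2-fold. Exceptions named after their values were seen are Itgb2, Gm49368, Igkc and Ighg2c, and genes first in the other library or with raw tag UMIs. Alternatives changed the cell filter, doublets, scaling, thinning, class rule, tag measure, limits and hashtag. The members and lists were chosen with earlier results of these data known.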

Additional observations from a re-analysis of the deposited data

Results flagged for a closer look

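Ly6c2 lay on different sides of the control in different classes, with both hashtags of a class on the same side. Its log2 ratio was 0.62 in HSC/MPP-like and 0.16 in monocyte progenitor-like cells, and -0.31 in maturing neutrophil-like and -0.61 in pre-neutrophil-like cells. Ly6e did the same, at 0.23 in HSC/MPP-like and 0.25 in monocyte progenitor-like cells and -0.57 in pre-neutrophil-like cells. These differences between classes were not tested, and hashtags of 1 library are not replicates. The neutrophil markers differed by 1.38 on the log2 scale in HSC/MPP-like cells, and in those poor in them Ly6c2 was at 0.58. The HSC/MPP-like values of both genes turn negative at the finer clustering.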

How the results depend on the processing

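Of 352 values recomputed for 58 results, 182 stayed within the interval of the main value, 147 moved beyond it and 23 changed sign. For counts a limit of 1.5 times, and for rho a fixed margin, stood in place of the interval. A change of sign was counted only where the main interval excluded 0 or the main rho was not near 0. The cause of each shift was not tested. Over all cells the log2 ratio of Ly6g was 0.87 with TMM scaling, 0.81 without the 20 most abundant genes, 0.62 with equal weights for the classes, 0.53 with thinned cells, 0.72 without barcodes of both hashtags, and 1.02 and 0.43 for hashtags 1 and 2. TMM moved the median of all genes from -0.12 to 0.011 and the share of higher genes among those past 2-fold from 19.3% to 26.7%. Among ratios whose counting interval excluded 0, signs changed over all cells for Ly6a with hashtag 1 (0.33), Ly6e with hashtag 1 (-0.12), Itgam with hashtag 2 (-0.21), with equal class weights for Ly6c2 (-0.17) and Itgam (-0.092), and with thinning for Ly6c2 (-0.083) and Itgam (-0.03). Ly6d, whose interval held 0, was 1.34 and -0.55 for the hashtags, and Ly6c1 0.22 and -0.36.

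In HSC/MPP-like cells Ly6a was at -1.24 at resolution 2, where Ly6c2 (-0.15) and Ly6e (-0.17) changed sign, as Ly6e did with each cell's own score (-0.075). Itgam there was 1.69 with each cell's own score, -0.41 without doublet removal, -0.51 with hashtag 1, and -1.83 and -1.62 in cells with at most 1% and 0.5% neutrophil-marker UMIs, both added after the data had been seen. Itgam also changed sign in maturing cells without doublet removal (0.099) and in the last maturing step (0.057), in monocyte progenitor-like cells at resolution 2 (0.36) and without doublet removal (0.50), and in neutrophil progenitor-like cells without doublet removal (0.78). Ly6g in monocyte progenitor-like cells was -0.28 with hashtag 2. In pre-neutrophil-like cells Ly6g was 1.48 at resolution 2, 1.08 with own scores and 1.09 with hashtag 2, and Ly6c2 was -0.80 at resolution 2, -0.50 with own scores, and -0.64 and -0.53 for the hashtags.

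The Gr1 share ratio was 1.47 with centred log-ratios, 0.96 with hashtags in the total, and 1.09 and 0.57 for hashtags 1 and 2. The rho of Gr1 with Ly6g was 0.64 and 0.63 with thinned RNA and 0.52 and 0.46 in maturing cells, where Gr1 with Ly6c2 was -0.041 in the control and CD11b with Itgam was -0.36 and -0.33. With centred log-ratios the latter was 0.45 and 0.45 over all cells. The Sca1-high difference, -5.93 points, was -12.5 and -2.78 points at the 80th and 95th percentiles. Genes past 2-fold numbered 915, or 1651 and 434 with minimums of 20 and 500 UMIs and 1877 at 1.5-fold. No paired analysis was possible because each group has 1 library and no test was made. Ly6a, Ly6c1 and Ly6d had 12 to 652 UMIs in each library, in 12 to 177 cells.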

Other observations

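Ly6k was found in 3 of 292 control monocyte progenitor-like cells and in 35 of 637 labelled Utx-deleted. A UMI of Lypd6b was found in 62 control HSC/MPP-like cells and in 2 of the other library. An Itgal UMI was found in 62.3% of all control cells and 29.3% of those labelled Utx-deleted, and in HSC/MPP-like cells in 56.5% and 12.6%. These shares are not thinned to a common depth. Barcodes with both hashtags, kept in the counts above, numbered 209 in the control and 439 in the library labelled Utx-deleted, and 1 cell of the latter held 422562 tag UMIs other than hashtags, against a highest value of 18695 in the control. Values for hashtag 1 or 2 alone leave such barcodes out. In HSC/MPP-like cells labelled Utx-deleted, cells of hashtags 1 and 2 held 23 and 88 of 177 Ly6g UMIs. They held 46 and 138 of 273 Itgam UMIs. The part of barcodes with both hashtags in the class ratios was not tested.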
